A study of Mus musculus with 6 samples.

Results

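Genes that distinguish atrial from ventricular muscle were followed in single mouse hearts. The 10 genes were *Sln*, *Myl7*, *Myl4*, *Bmp10*, *Dkk3*, *Nr2f2* and *Tbx5*, which mark or specify the atria, and *Myl2*, *Irx4* and *Hey2*, which mark or specify the ventricles. A gene was taken when the gene name of a non-control probe was exactly 1 of these symbols. All 10 were found, with 1 probe each, among 36163 gene names on the array. RNA was measured in the hearts of 3 ND- and 3 HFD-fed male C57BL/6 mice, 1 array per heart, to find the genes that differ between the diets. The mice were put on their diet when 4 weeks old and stayed on it for 4 months. The HFD drew 60% of its kcal from fat, and ND mice ate standard chow. The labels name no transgene for either group, and they do not say how much of the atria, vessels or surrounding fat was kept with a heart.

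The atria and ventricles contract with different myosin light chains. *Myl7* and *Myl4* encode the atrial regulatory and essential light chains, *Myl2* encodes the ventricular regulatory chain, and sarcolipin (*Sln*), an inhibitor of the sarcoplasmic calcium pump, is the atrial counterpart of phospholamban. In the adult mouse the atria are a small share of the heart, so a gene confined to them is diluted in RNA of a whole heart. Atrial and ventricular identity is set by transcription factors, among them COUP-TFII (*Nr2f2*) and TBX5 on the atrial side and IRX4 and HEY2 on the ventricular side.

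The level of a gene is given as the log2 intensity of its probe relative to the 75th percentile of all probes on the array, so that 0 is the level of a fairly bright probe and 1 unit more is a probe 2 times as bright. Levels of different probes are not set against each other. From 49.2% to 53.0% of the probes on an array stood well above background, no spot was saturated, and arrays of 1 diet were correlated with r of 0.990 to 0.995. The arrays shared 1 slide, on which row 1 held HFD 1 and HFD 2 and row 2 held the remaining 4. HFD 2 had the lowest slope of the spike-in controls, 0.896 against 0.921 to 0.958, and also stood apart in the genes described here, so the relations between the 10 genes, and the differences that turned without that heart, are also given without it. All 9 cardiomyocyte markers fixed for the tissue were well above background in all 6 hearts, and their summed level, in multiples of the 75th percentile, was 3366, 3449 and 3450 in ND and 3365, 3589 and 2969 in HFD. Nothing says that the hearts came from separate litters or cages, so the p-values measure only the spread between these 6 hearts.

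The sequences of the *Myl7* and *Bmp10* probes are shown because these genes set the scale of what follows, *Myl7* as the measure of atrial RNA to which the others were related and *Bmp10* as the gene seen in 1 heart. They are the 60-base probes as deposited, 5′ to 3′, with no part marked. The *Myl7* probe covers chr11:5798186-5798435 on the minus strand of mm9, a span of 250 bases, so it joins separate genomic segments. The *Bmp10* probe lies at chr6:87384427-87384486 on the plus strand.
Myl7 probe: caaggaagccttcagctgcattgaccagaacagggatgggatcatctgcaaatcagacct
Bmp10 probe: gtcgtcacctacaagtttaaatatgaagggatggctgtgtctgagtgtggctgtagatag

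The 250 bases before the transcription start are shown for *Myl7* and *Myl4*, which followed each other most closely over the hearts. They come from RefSeq on GRCm38.p6, which held such windows for 7 of the 10 genes (8 windows, with 2 for *Myl2*). *Sln*, *Dkk3* and *Tbx5* were not matched. The *Myl7* window is chr11:5898783-5899032 on the minus strand and the *Myl4* window chr11:104550413-104550662 on the plus strand. Capitals mark the motifs found on either strand among a GATA motif (TGATAA), a T-box element (GGTGTG), a nuclear receptor element (AGGTCA), the E-box CACGTG, a CArG box and a MEF2 site.
Myl7 window: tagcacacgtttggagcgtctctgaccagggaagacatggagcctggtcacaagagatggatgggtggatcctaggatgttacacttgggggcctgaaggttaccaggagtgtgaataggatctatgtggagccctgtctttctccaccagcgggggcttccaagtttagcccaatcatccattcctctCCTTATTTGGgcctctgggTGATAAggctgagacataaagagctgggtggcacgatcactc
Myl4 window: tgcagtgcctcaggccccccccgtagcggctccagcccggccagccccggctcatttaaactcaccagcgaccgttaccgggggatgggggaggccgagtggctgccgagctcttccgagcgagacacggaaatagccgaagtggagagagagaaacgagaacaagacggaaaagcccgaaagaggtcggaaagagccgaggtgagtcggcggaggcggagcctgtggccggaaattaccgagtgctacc

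The *Myl7* window held a CArG box from 61 to 52 bases before the start and a GATA motif from 42 to 37 bases before it, which do not overlap. Of all 32851 windows of this length, 1.47% held the CArG box and 7.94% the GATA motif. The *Myl4* window matched none of the 6 motifs. Among the other windows, that of *Hey2* held a T-box element (16.3% of all windows) and 1 of those of *Myl2* a nuclear receptor element (14% of all windows). The E-box was in 6.02% and the MEF2 site in 2.92% of all windows and in none of the 8. The matches are descriptions of letters, not of binding.

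Over the 6 hearts, the transcripts of the atrial contractile apparatus varied by more than almost any other gene on the array, and both diets held hearts with much and with little of them. The level of *Myl7* (the probe printed above) was 2.67 in ND 1, 4.30 in ND 2 and 5.94 in ND 3. It was 6.48 in HFD 1, -1.43 in HFD 2 and 5.43 in HFD 3, the order in which all values of the hearts are given. The ND intensities were 3101, 9524 and 29367 and the HFD intensities 46044, 168 and 23449. The highest and the lowest heart were thus both HFD-fed, 241-fold apart, and the ND hearts lay between them. HFD 2 remained well above background. In RNA of a whole heart, fewer atrial cells and less of the transcript per atrial cell cannot be told apart.

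*Myl4*, which encodes the atrial essential light chain, was measured at chr11:104448441-104448500 on the plus strand. Its level was 5.77, 7.08 and 8.37 in the ND hearts and 8.71, 2.87 and 7.94 in the HFD hearts. The order of the hearts was that of *Myl7*, and the brightest exceeded the dimmest 57.0-fold.

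*Sln* was measured at chr9:53701574-53701633 on the plus strand. The level of this regulator of the calcium pump was 3.43, 5.05 and 6.97 in ND and 7.45, -2.14 and 6.46 in HFD. The ND intensities were 5276, 15963 and 59955, and those in HFD 90442, 103 and 47753. HFD 1 exceeded HFD 2 by 9.60 log2 units, a 776-fold difference, which was the widest range of all 27590 probes tested. *Myl7* with 7.92 log2 units was at rank 4, *Myl4* with 5.83 at rank 8 and *Dkk3* with 5.31 at rank 13. The median range over all probes tested was 0.40 log2 units, and 496 probes (1.8%) ranged over at least 2. Of the 9 genes tested here, 4 did. HFD 2 made much of this width, and among the other 5 hearts HFD 1 still exceeded ND 1 16.3-fold for *Sln*, 14.1-fold for *Myl7*, 7.63-fold for *Myl4* and 7.87-fold for *Dkk3*.

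*Dkk3* encodes a secreted member of the Dickkopf family, which is known for its link to Wnt signalling, and was measured at chr7:119259556-119259615 on the minus strand. Its level was 2.05, 2.92 and 4.10 in ND and 5.03, -0.29 and 3.89 in HFD. The hearts stood in the same order again, with 39.8-fold between the ends.

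*Bmp10* encodes a ligand of the BMP family that the adult heart makes in the right atrium. Its probe was well above background in HFD 1 alone, with an intensity of 80.8 against 3.67 to 5.34 in the other 5 hearts. HFD 1 was the heart with the most *Sln*, *Myl7*, *Myl4* and *Dkk3*. Its *Bmp10* level of -2.67 was at least 4.26-fold higher than the mean of the detection limits of the other hearts, each taken as the dimmest probe well above background on that array. Against the highest of those limits, it was at least 3.54-fold higher. ND 3, whose *Myl7* level was 0.54 log2 units below that of HFD 1, had a measured *Bmp10* level of -6.70, not well above background.

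The transcription factors of the atrial side varied far less. *Tbx5*, a T-box factor needed for chamber formation and expressed in the atria and the left ventricle, was measured at chr5:120334087-120334146 on the plus strand. Its level was 2.16, 2.39 and 2.80 in ND and 3.19, 2.10 and 2.80 in HFD. The order of the hearts was that of *Myl7*, although ND 3 and HFD 3 differed by only 0.0041 log2 units and ND 1 and HFD 2 by 0.06. The ends were 2.12-fold apart.

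*Nr2f2*, which maintains atrial identity and is also made by venous endothelium, was measured at chr7:77496873-77496932 on the minus strand. Its level was 0.26, 0.21 and 0.77 in ND and 0.72, 0.19 and 0.70 in HFD. The hearts fell into 3 higher ones, ND 3, HFD 1 and HFD 3, and 3 lower ones, and the same 3 hearts had the most *Myl7*.

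The ventricular regulatory light chain hardly varied. *Myl2* was measured at chr5:122556732-122556791 on the plus strand, and its level was 9.17, 9.11 and 9.04 in ND and 9.02, 9.25 and 8.96 in HFD. The level was highest in HFD 2, in which the atrial transcripts were lowest. Before scaling, the intensity was highest in ND 1 (282278 against 276921 in HFD 2). The 75th percentile used for scaling was lowest in HFD 2 (453) and highest in HFD 3 (544). The range in level of 1.22-fold was exceeded by 68% of the probes tested. *Irx4*, a ventricular transcription factor that represses atrial genes, was measured at chr13:73406712-73406771 on the plus strand. Its level was 2.38, 2.40 and 2.31 in ND and 2.54, 2.35 and 2.44 in HFD, a range of 1.17-fold that 79.9% of the probes exceeded.

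*Hey2*, a repressor downstream of Notch that acts in the compact ventricular wall and also in vessels, was dim. It was measured at chr10:30552729-30552788 on the minus strand, and its level was -3.23, -3.13 and -2.68 in ND and -3.05, -3.98 and -3.23 in HFD. Its intensity of 28.8 in HFD 2 lay close to that of the dimmest probe well above background there, 18.6. In HFD 2 it was lower than in any other heart, as *Sln*, *Myl7*, *Myl4* and *Dkk3* were and *Myl2* was not.

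**Figure D1:**
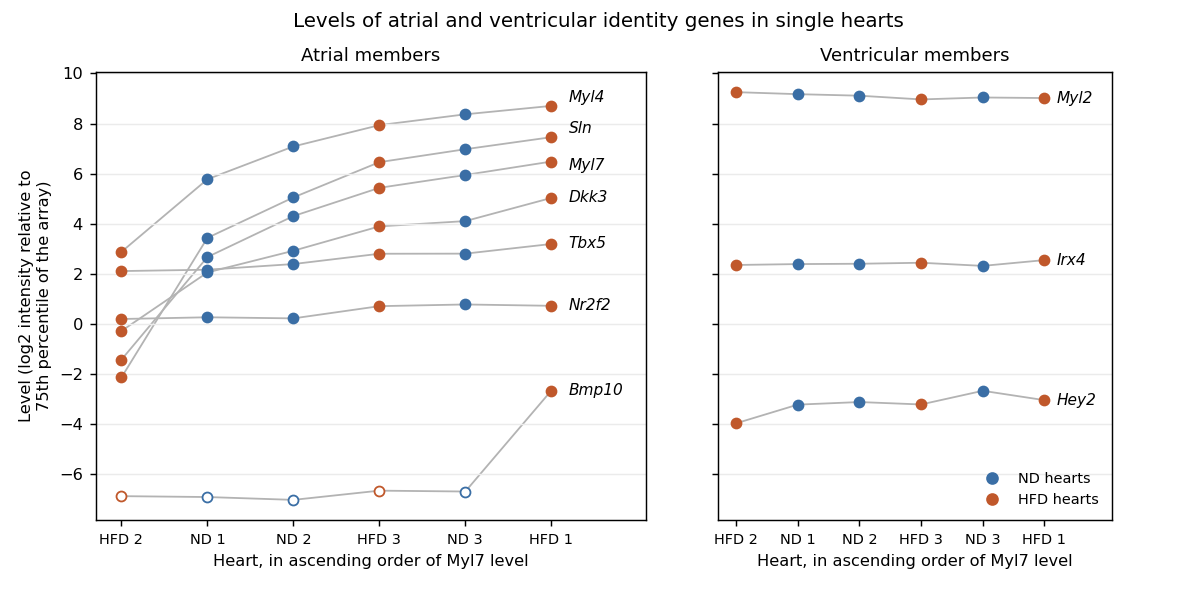
Level of each gene (log2 intensity relative to the 75th percentile of the array) in the 6 hearts, which are placed on the x axis in ascending order of *Myl7*; blue points are ND and orange points HFD hearts, and open points are values not well above background. *Sln*, *Myl7*, *Myl4* and *Dkk3* climb from HFD 2 to HFD 1, *Bmp10* stands out in HFD 1 alone, and *Myl2* and *Irx4* stay within 0.29 and 0.23 log2 units.

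How the genes moved together was measured by relating each one to *Myl7* over the 6 hearts. This gave 8 relations, since *Bmp10* was above background in 1 heart alone. Benjamini-Hochberg adjustment was over these 8, and the p-values are exact and two-sided over all pairings of the hearts, of which the smallest possible is 0.00139 for r and 0.00278 for rho. That the atrial level was lowest in HFD 2 and next lowest in ND 1 was known when the genes were chosen, so the p-values are not independent evidence.

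The atrial transcripts followed *Myl7* almost exactly. For *Myl4*, Pearson's r was 0.9997 (exact p = 0.00139, adjusted p = 0.0037), for *Sln* 0.998 with the same p and for *Dkk3* 0.991 with the same p. Spearman's rho was 1 for each (exact p = 0.00278, adjusted p = 0.00556). Without HFD 2 and ND 1, the hearts farthest from the median of *Myl7*, r over the other 4 was 0.999 for *Myl4*, 0.997 for *Sln* and 0.977 for *Dkk3*, so the relations did not rest on those hearts.

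The size of the response differed between the genes. For each log2 unit of *Myl7*, *Sln* was 1.22 log2 units higher, *Myl4* 0.74, *Dkk3* 0.64 and *Tbx5* 0.12. Without HFD 2, these slopes were 1.08, 0.77, 0.74 and 0.25. A slope below 1 is a smaller fold change than that of *Myl7* itself.

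*Tbx5* followed *Myl7* in the same direction over a narrower range, while *Nr2f2* differed between a higher and a lower group of hearts. For *Tbx5*, r was 0.851 (exact p = 0.0208, adjusted p = 0.0333) and rho 1 (exact p = 0.00278, adjusted p = 0.00556), and r was 0.962 without the 2 farthest hearts. For *Nr2f2*, r was 0.790 (exact p = 0.0292, adjusted p = 0.0333) and rho 0.886 (exact p = 0.0333, adjusted p = 0.0444), and r was 0.891 without those hearts. Within neither group did *Nr2f2* stand in the order of *Myl7*, so these values describe the gap between the groups. Without the 2 farthest hearts, ND 2 was the only heart left of the lower group.

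The ventricular genes did not move as a group. *Myl2* was lower where *Myl7* was higher, with r of -0.914 (exact p = 0.00694, adjusted p = 0.0139) and rho of -0.83 (exact p = 0.0583, adjusted p = 0.0667). Its slope was only -0.03 log2 units for each unit of *Myl7*, r was -0.59 without the 2 farthest hearts, and with quantile normalization r was -0.68 (exact test, adjusted p = 0.146). *Hey2* was related to *Myl7* in the direction of the atrial genes (r of 0.899, exact p = 0.0264, adjusted p = 0.0333; rho of 0.886, exact p = 0.0333, adjusted p = 0.0444). Without HFD 2 and ND 1 its r was 0.395, and without HFD 2 alone 0.541, so that relation rested on those hearts. For *Irx4*, r was 0.457 (exact p = 0.351) and rho 0.429 (exact p = 0.419), which did not pass. In all, 7 of the 8 relations passed the adjusted threshold for r and 6 for rho. Without HFD 2, 4 passed for r, those of *Sln*, *Myl4*, *Dkk3* and *Tbx5* (r of 0.960), and *Nr2f2* (0.869) and *Myl2* (-0.85) did not. The count was 4 without HFD 3, 5 without ND 1 and 3 without ND 3 or HFD 1. Within slide row 2, which held 4 hearts, r was 0.9999 for *Myl4*, 0.999 for *Sln*, 0.994 for *Dkk3*, 0.973 for *Tbx5*, 0.856 for *Nr2f2*, 0.636 for *Hey2*, -0.25 for *Irx4* and -0.86 for *Myl2*. These were values added after the data were seen and given with no test, and a diet, with 3 hearts, held too few for one.

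**Figure D2:**
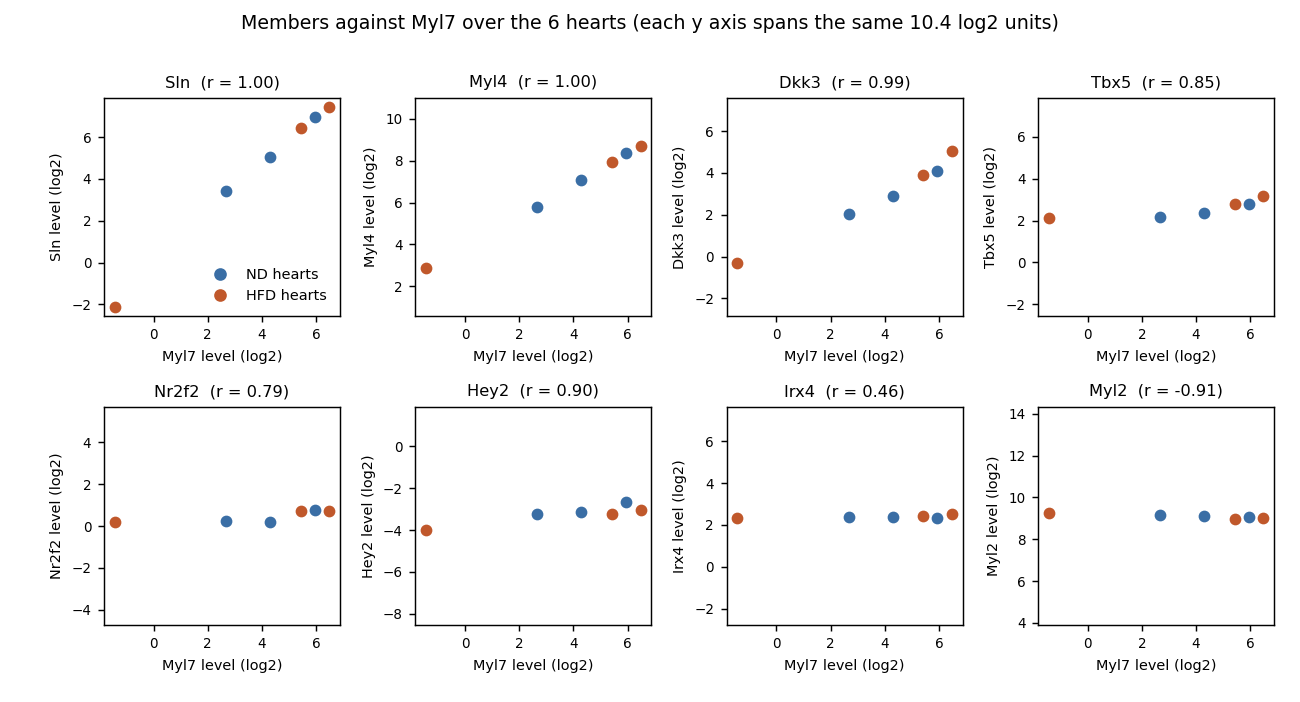
Level of 8 genes (y axis, log2) against that of *Myl7* (x axis, log2) in the 6 hearts, blue for ND and orange for HFD, with Pearson's r above each panel; all y axes span the same number of log2 units. *Sln*, *Myl4* and *Dkk3* rise along a line with hearts of both diets on it, while *Tbx5*, *Nr2f2*, *Hey2*, *Irx4* and *Myl2* lie nearly flat.

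None of the 10 genes separated the diets. Of the 9 tested with limma, 0 passed an adjusted p of 0.05, where 4 of all 27590 probes (0.0145%) did, and 0 had an unadjusted p below 0.05, where 3275 probes (11.9%) did. The hearts of the diets overlapped for all 10 genes, whereas they did not overlap for 5236 probes (19%) on the array. For HFD minus ND, *Sln* gave -1.23 log2 units (SE 2.62, 95% confidence interval -7.64 to 5.18, limma's adjusted p = 0.894) and *Myl7* -0.81 (SE 2.17, interval -6.11 to 4.48, adjusted p = 0.918). The mean *Sln* level was 5.15 ± 1.77 (SD, n = 3) in ND and 3.92 ± 5.28 in HFD, and that of *Myl7* was 4.30 ± 1.64 and 3.49 ± 4.30. The spread within each diet exceeded the difference between them.

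For *Myl4* the difference was -0.57 (SE 1.61, limma's adjusted p = 0.922) and for *Dkk3* -0.15 (SE 1.40, adjusted p = 0.980). The standard errors of *Sln*, *Myl7*, *Myl4* and *Dkk3* stood at ranks 1, 3, 7 and 10 among all probes tested, whose median was 0.109 and of which 40 (0.145%) exceeded 1. The direction of these 4 differences turned with the hearts included. Without HFD 2, *Sln* was 1.80 log2 units higher in HFD, *Myl7* 1.65, *Myl4* 1.24 and *Dkk3* 1.44, none past the threshold (limma's adjusted p of 0.536, 0.542, 0.558 and 0.466). Without ND 3, *Myl7* (0.0087), *Myl4* (0.075) and *Dkk3* (0.39) also turned positive, while *Sln* (-0.32) did not. The intervals span differences of many fold in either direction, so an effect of the diet on these genes was not detectable with 3 hearts per diet.

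For the genes with a narrow range, the limits were much tighter. *Myl2* differed by -0.03 log2 units (SE 0.099, interval -0.27 to 0.21, limma's adjusted p = 0.932) and *Irx4* by 0.08 (SE 0.078, interval -0.11 to 0.27, adjusted p = 0.744). *Tbx5* gave 0.25 (SE 0.31, adjusted p = 0.799), *Nr2f2* 0.12 (SE 0.21, adjusted p = 0.863) and *Hey2* -0.41 (SE 0.28, adjusted p = 0.626). By exact permutation of the hearts, which cannot give a two-sided p below 0.1 with 3 against 3, p lay between 0.3 (*Irx4*) and 1 (*Nr2f2*) for the 9 genes.

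**Figure D3:**
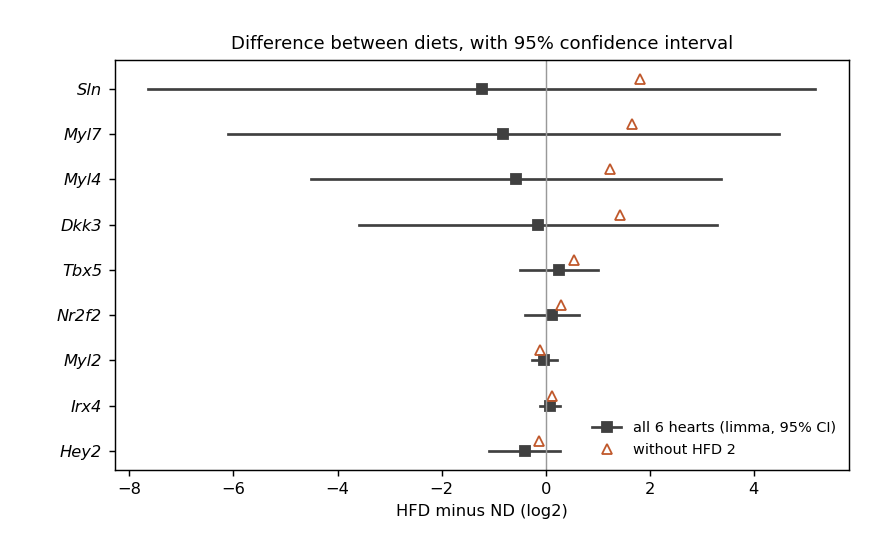
Difference of each gene between the diets (x axis, HFD minus ND in log2 units) with its 95% confidence interval from limma over all 6 hearts (squares) and its value without HFD 2 (triangles). The interval of every gene includes 0, those of *Sln*, *Myl7*, *Myl4* and *Dkk3* are the widest, and their triangles lie on the other side of 0.

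Other genes of the atria and ventricles were examined as lists. Of 14 further atrial genes, 12 were tested, and 4 of the 12 ranged over at least 2 log2 units against 1.8% of all probes. *Mybphl*, a myosin-binding protein of atrial muscle, had levels of -0.84, 0.87 and 2.96 in ND and 3.48, -5.67 and 2.14 in HFD, and it was not well above background in HFD 2. *Fgf12*, a modulator of sodium channels, had levels of -3.10, -1.39 and 0.57 in ND and 1.22, -4.53 and -0.12 in HFD. Both stood in the order of *Myl7*.

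*Nppa*, which encodes the atrial natriuretic peptide, had levels of 6.98, 7.58 and 8.86 in ND and 8.87, 5.59 and 7.69 in HFD, the same order over a range of 3.27 log2 units. *Stard10*, a lipid transfer protein, ranged over 2.10 log2 units, from 0.99 in ND 1 to 3.09 in HFD 1. The other members of the list ranged over less than 2. *Nppb*, which encodes the B-type natriuretic peptide, had a range of about 1 log2 unit and was highest in ND 1 and lowest in ND 3. Between the diets, 0 of the 12 passed the adjustment. At an unadjusted p below 0.05, *Kcnj5*, a subunit of the acetylcholine-gated potassium channel, was higher in HFD (0.43, SE 0.10, limma's adjusted p = 0.248), where 5.24% of all probes were higher. The median difference of the list was 0.10 against -0.0081 over all probes.

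Of 11 further ventricular genes, 10 were tested (*Hand1* was not) and 0 ranged over 2 log2 units. *Myl3*, the ventricular essential light chain, ranged over 0.21 and phospholamban (*Pln*) over 0.29. The widest ranges were those of *Irx1* (1.48) and *Irx2* (1.44), Iroquois factors of the ventricular septum, which were lowest in ND 3 and HFD 1, the hearts with the most *Myl7*. 0 of the 10 passed the adjustment between the diets. *Irx3* (-0.67, SE 0.25, limma's adjusted p = 0.389) and *Irx5* (-0.57, SE 0.16, adjusted p = 0.285), which shape the conduction and repolarisation of the ventricle, had an unadjusted p below 0.05, and 6.63% of all probes were lower at that threshold. The median difference of the list was -0.12.

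Of 13 further chamber regulators, 11 were tested, and *Shox2* and *Isl1* of the sinus node were above background on no array. 0 of the 11 passed the adjustment. *Mef2a* (-0.32, SE 0.071, limma's adjusted p = 0.232) and *Hey1* (-0.31, SE 0.096, adjusted p = 0.323) were lower at an unadjusted p below 0.05. Of all probes, 6.63% were lower at that threshold, and the list is too short to tell its count from that share. *Nkx2-5*, a core factor of all cardiac muscle, ranged over 0.26 log2 units. All 8 partners of *Sln* in sarcoplasmic calcium cycling were tested, and 0 had an unadjusted p below 0.05 or a range of 2. Over all probes, 11.9% had such a p and 1.8% such a range, so a count of 0 in so short a list says little. *Atp2a2*, the calcium pump that sarcolipin inhibits, ranged over 0.23 log2 units and the ryanodine receptor *Ryr2* over 0.15.

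Of 19 partners of *Bmp10* and *Dkk3* in BMP and Wnt signalling on the array, 15 were tested. 0 passed the adjustment, and the type I receptor *Bmpr1a* was higher in HFD at an unadjusted p below 0.05 (0.23, SE 0.068, limma's adjusted p = 0.307). Of all probes, 5.24% were higher at that threshold. *Id1* and *Id3*, targets of BMP signalling, ranged over 0.54 and 0.22 log2 units. In HFD 1, the heart with *Bmp10* above background, the level of *Id1* was 3.65, within the 3.45 to 3.99 of the other hearts. All 6 myosin chains and their kinases were tested and 0 had an unadjusted p below 0.05, where 11.9% of all probes did. *Myh6*, the main heavy chain of the adult mouse heart and of both chambers, ranged over 0.27 log2 units. *Myh7*, the fetal and slow heavy chain, had a difference of 0.58 (SE 0.26, limma's adjusted p = 0.457).

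**Figure D4:**
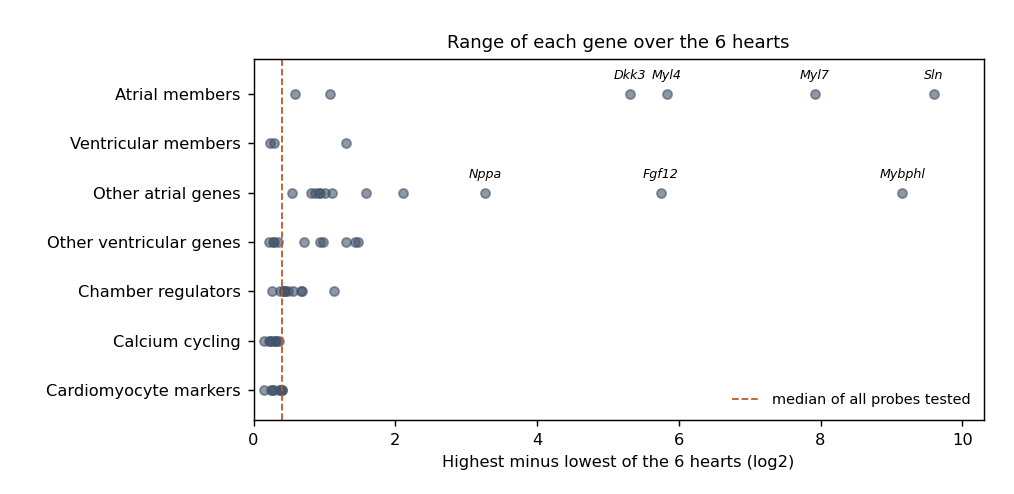
Range of each tested gene over the 6 hearts (x axis, highest minus lowest level in log2 units) by list, 1 point per gene, with the median of all probes tested (0.40) as a dashed line. *Sln*, *Mybphl*, *Myl7*, *Myl4*, *Fgf12*, *Dkk3* and *Nppa* lie beyond 3 log2 units, while all ventricular genes, chamber regulators, calcium cycling genes and cardiomyocyte markers stay below 2.

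Markers of other tissues that can stay attached to a heart were read beside the atrial genes. The summed level of the further atrial genes, in multiples of the 75th percentile, was 251, 299 and 558 in ND and 591, 157 and 315 in HFD, whereas that of the further ventricular genes was 1266, 1305 and 1276 in ND and 1224, 1351 and 1148 in HFD. *Nppa* and *Nppb* had the highest levels of the atrial list in every heart, so its sum mostly followed them. Not all of that list rose with *Myl7*: *Kcna5* was highest in HFD 2 and lowest in ND 3, and *Nppb* was highest in ND 1 and lowest in ND 3. White adipocyte markers moved with the atrial genes. Of 6, 5 were tested, all 5 ranged over at least 2 log2 units, and *Lep* was above background on no array. Their summed level was 3.15, 5.99 and 7.04 in ND and 7.25, 0.369 and 2.89 in HFD, lowest in HFD 2 and highest in HFD 1. In HFD 3 the sum was lower than in ND 1 and ND 2, which had less *Myl7*. *Cfd* weighed most in the sum, with 1.20 in ND 1, 2.12 in ND 2 and 0.80 in HFD 3. *Adipoq*, *Plin1*, *Cidec* and *Retn* were each higher in HFD 3 than in ND 1, and of these only *Plin1* was also higher than in ND 2. *Adipoq*, the gene of the fat hormone adiponectin, had levels of -2.46, -1.42 and -1.21 in ND and -0.37, -4.01 and -1.90 in HFD.

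Smooth muscle and great vessel markers, all 5 tested, had summed levels of 119, 111 and 133 in ND and 250, 111 and 142 in HFD, so that HFD 1 stood out. *Acta2* and *Des* had the highest levels of the list in every heart but HFD 1, so the sum mostly followed them. Within the list, *Cnn1* ranged over 3.03 log2 units, *Tagln* over 2.12 and *Myh11* over 1.87. Each of these was lowest in HFD 2 and highest in HFD 1, as *Sln*, *Myl7*, *Myl4* and *Dkk3* were. *Acta2* was also highest in HFD 1 but lowest in ND 2, and *Des* was lowest in HFD 1. Nerve and glia markers (4 of 5 tested) had summed levels of 2.92, 3.48 and 4.17 in ND and 4.55, 2.64 and 4.77 in HFD, again lowest in HFD 2. Of 6 markers of the conduction system, *Hcn4*, *Shox2* and *Isl1* were above background on no array. Of 4 lung markers, 0 were tested, and *Sftpc*, *Sftpa1* and *Sftpb* were above background on no array. *Rag1* and *Cd8a* of the thymus were also above background on none. The part of fat, vessel and nerve tissue in the atrial values was not tested.

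**Figure D5:**
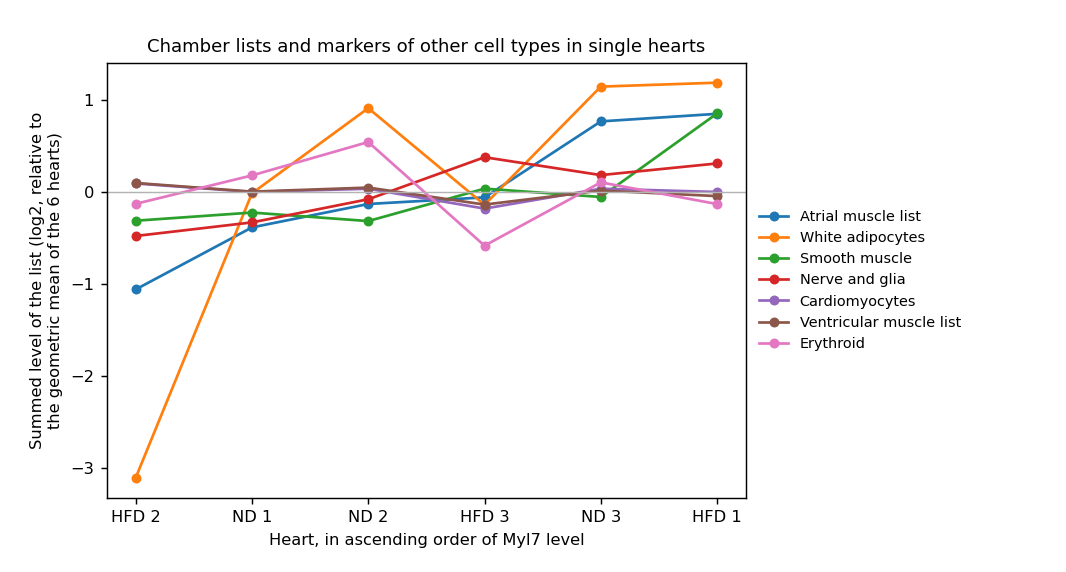
Summed level of each list (y axis, log2 relative to the geometric mean of the 6 hearts) in the 6 hearts, placed in ascending order of *Myl7* on the x axis, 1 coloured line per list. The atrial list and the white adipocyte markers are lowest in HFD 2 and highest in HFD 1, and the cardiomyocyte and ventricular lists stay close to 0.

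The genes most like the atrial members were sought among the 256 probes outside the list that were well above background in all 6 hearts and ranged over at least 2 log2 units. Likeness was Pearson's r over the 6 hearts to the mean profile of *Sln*, *Myl7*, *Myl4* and *Bmp10*, given as a description. *Bmp10* was not well above background in 5 of the hearts, so it adds to the profile little but the contrast of HFD 1 with the rest. Of the 256, 35 (13.7%) had r of at least 0.9, and 0 had r of -0.9 or below. The 10 genes with the highest r were *Fbln7*, *Rbp4*, *1190007F08Rik*, *Flrt1*, *Gm5640*, *Gng8*, *Tceal3*, *Fgf12*, *Adipoq* and *Ppp1r1b*, with r from 0.966 to 0.987. *Fbln7*, a fibulin of the extracellular matrix, had levels of -3.47, -3.31 and -2.63 in ND and -2.07, -4.41 and -2.86 in HFD. *Rbp4*, the carrier of retinol in blood, had levels of -1.55, -0.94 and -0.59 in ND and 0.53, -3.57 and -0.95 in HFD. With the profile taken without *Bmp10*, 5 of the 10 remained among the 10 highest (*Fbln7*, *Rbp4*, *Flrt1*, *Fgf12* and *Ppp1r1b*). With HFD 2 left out, 3 of the 10 did, so neither which genes make the list nor their order is firm. The lowest r were those of *Lrrc48* (-0.89) and *Sdk2* (-0.88), both highest in HFD 2.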

How the data were processed

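RNA of 3 ND and 3 HFD hearts was measured on 6 Agilent mouse arrays of 55681 non-control probes, read in 1 colour. The authors' deposited intensity values came from Agilent Feature Extraction 10.7.1.1, which had subtracted background within each array, and they were not normalized between arrays. The authors' deposited log2 table was made in a way not given in the sources used here. Every column tracked the scanner values of 1 array (Spearman's rho of at least 0.999998 over probes, and no more than 0.954 with any other), and the table differed from a quantile normalization of the log2 intensities by a median of at most 0.0043. The median of each column was 4.56. It served as an alternative. Probe positions are on mm9 per the file headers.

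Control spots and 127 to 190 outlier spots per array were left out, spots of a probe were averaged, and from log2 of the intensity that of the array's 75th percentile was taken. A probe was well above background when the software rated at least the 0.5 share of its spots so, and it was tested when this held on every array of at least 1 diet and at least 2 arrays of each diet measured it. For the 27590 probes tested, lmFit and eBayes of limma 3.58.1 (R 4.3.3) gave two-sided p-values, adjusted by Benjamini-Hochberg. A listed gene was read from its brightest probe. The exact permutation of the diets was run in R. Exact tests of the relations used numpy 2.4.6, with ranks from scipy 1.17.1, and figures matplotlib 3.10.9 in Python 3.11.15. The relations to *Myl7* were planned for 9 genes and made for 8, since *Bmp10* was above background in 1 heart alone. The code was tested on simulated data. The separate result of 1 list gene is not reported here.

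The 10 genes, the lists of 6 pathways and 13 cell types, and the tests were chosen with earlier results of these data known. Named are the 10 genes, list genes at an unadjusted p below 0.05 or defining their list, and the 10 genes most and 5 least like the atrial profile. Of list genes outside this rule, those named for a wide or narrow range, for the order of the hearts or as background were chosen after their values were seen. Alternatives were quantile normalization, normexp background correction (offset 50), other filters on dim probes, the authors' table, array weights, the slide row, the methods' t-test, robust variances with an intensity trend, the replicate number as a block, outlier spots kept, the average of a gene's probes, and each heart left out.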

Additional observations from a re-analysis of the deposited data

How the results depend on the processing

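Under all 19 other settings, the methods' t-test included, 0 of the genes passed the adjusted threshold between the diets, and 0 had an unadjusted p below 0.05. Of the recomputed differences, 149 kept their direction and 22 reversed. With array weights, *Sln*, *Myl7*, *Myl4* and *Dkk3* gave 0.28, 0.40, 0.34 and 0.55 for HFD minus ND on the log2 scale. With the slide row as a term, and equally within slide row 2, they gave 1.31, 1.13, 0.86 and 0.87. Slide row 1 held no ND heart, so both settings set HFD 3 alone against the ND hearts. The authors' table gave *Myl2* 0.015. Leaving out each heart in turn gave -2.99 to 1.80 for *Sln*, -2.31 to 1.65 for *Myl7*, -1.67 to 1.24 for *Myl4*, -1.22 to 1.44 for *Dkk3* and -0.12 to 0.027 for *Myl2*. The other 4 genes kept their direction, with -0.59 to -0.13 for *Hey2*, 0.03 to 0.13 for *Irx4*, 0.02 to 0.30 for *Nr2f2* and 0.0021 to 0.54 for *Tbx5*. The number of relations to *Myl7* past the threshold went from 7 of 8 to 6 with quantile normalization, normexp and the authors' table, and to between 3 and 7 with a heart left out, where fewer pairings can be drawn (3 without ND 3, 3 without HFD 1, 4 without HFD 2 and 4 without HFD 3). *Sln*, *Myl4* and *Dkk3* kept r of at least 0.980 in each of these. *Myl2* was lost with quantile normalization (r of -0.68) and the authors' table (-0.67), and *Hey2* with normexp (0.72), which also narrowed its range from 1.30 to 0.58 log2 units. The cause was not tested. In slide row 2, HFD 3 was the only HFD heart, so its counts of pathway genes past a threshold are not given. Replicate numbers do not pair the hearts: the deviations of same-numbered hearts had r of -0.15, 0.15 and 0.19. With the replicate number as a block, 0 genes were called and *Sln* gave -1.23 (SE 2.25). Hearts per diet, signal near background for *Bmp10* and *Hey2*, and 1 probe per gene limit these values.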

Other observations

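Other cell types of the heart differed in how far their markers followed the atrial profile, the mean of *Sln*, *Myl7*, *Myl4* and *Bmp10* over the 6 hearts. The r values are descriptions over 6 hearts whose arrays share a slide. They include HFD 2, the lowest heart of the profile, and were not computed without it, so high values can rest on that heart. Among 5 fibroblast markers, all tested, the collagen gene *Col1a1* had r of 0.975 to the profile, *Tcf21*, a fibroblast transcription factor, 0.914, *Col3a1* 0.908, decorin (*Dcn*) 0.255 and *Pdgfra* 0.185. *Col1a1* had levels of 3.69, 3.81 and 3.84 in ND and 4.02, 3.23 and 3.95 in HFD, a range of 0.79 log2 units. *Tcf21* was at -0.94 in HFD 2 and between -0.35 and 0.03 in the other hearts. The summed level of the fibroblast list was 349, 311 and 290 in ND and 313, 266 and 342 in HFD. Most of that sum was *Dcn*, whose level was 7.88 to 8.28. *Pdgfra* was lower in HFD at an unadjusted p below 0.05 (-0.30, SE 0.098, limma's adjusted p = 0.335), where 6.63% of all probes were lower. The 3 endocardial markers had summed levels of 3.94, 4.90 and 6.12 in ND and 6.71, 4.34 and 5.26 in HFD, with r of 0.846 for *Plvap*, 0.362 for *Npr3* and 0.264 for *Nfatc1*. The summed level of the 5 endothelial markers was 34.8, 38.4 and 37.5 in ND and 33.2, 37.6 and 34.1 in HFD. Of these, *Kdr* was lower in HFD at an unadjusted p below 0.05 (-0.26, SE 0.082, limma's adjusted p = 0.329). The other 4 had a higher mean in HFD. The hearts of the diets did not overlap for 2 of the 5 markers, against 19% of all probes.

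Erythroid markers did not follow the atrial genes, with r of -0.10 to 0.04 to the profile. All 4 were lower in HFD at an unadjusted p below 0.05 without overlap of the diets, where 6.63% of all probes were lower at that threshold and 19% did not overlap, and 0 passed limma's adjustment. Their summed level was 249, 321 and 237 in ND and 201, 201 and 147 in HFD. Skeletal muscle markers (3 of 5 tested) had summed levels of 108, 109 and 96.6 in ND and 77.7, 94.0 and 88.9 in HFD, with *Ckm* lower at an unadjusted p below 0.05 (-0.27, SE 0.099, limma's adjusted p = 0.387). The sum was almost that of *Ckm* alone, whose level was 6.27 to 6.75. *Pvalb* lay between -1.45 and -0.15 and *Tnnt3* between -3.57 and -2.52. Epicardial *Wt1* was highest in HFD 2 (1.82) and lowest in ND 3 (0.57), with r of -0.69 to the profile. Of the conduction markers, 2 of 6 were tested. *Cacna2d2*, a calcium channel subunit, had r of 0.925, highest in HFD 1 (1.75) and lowest in HFD 2 (-1.10), whereas *Tbx3* had r of -0.21, highest in ND 2 (2.98) and lowest in ND 3 (2.55). T cell markers (2 of 5 tested) had summed levels of 1.06 to 1.20 in ND and 0.998 to 1.38 in HFD.

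With the profile taken without *Bmp10*, an alternative chosen after the data were seen, the closest genes were *Gdf10*, a ligand of the TGF-beta family (r of 0.982), *Ppp1r1b* (0.971) and *Ptgfr*, a prostaglandin receptor (0.964). Besides *Lrrc48* and *Sdk2*, the 5 lowest r to the full profile included a probe of an intergenic transcript (-0.87) and 2 probes without a gene name (-0.84 and -0.83).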
